A study of Mus musculus with 38 samples.

Results

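Tachykinins are short neuropeptides that share a C-terminal signature and act on G protein-coupled receptors. The 4 genes described here, Tac1, Tac2, Tacr1 and Tacr3, are the precursors and receptors of this family that were measured at useful depth in the adBNST, the anterodorsal part of a forebrain nucleus of the extended amygdala called the bed nucleus of the stria terminalis (BNST). They were chosen by name, as 4 of the 25230 genes in the count table, and all 4 were among the 16309 genes tested. The tissue came from wild-type mice in 4 groups. Stressed females (9 libraries) and stressed males (9 libraries) went through 6 weeks of chronic variable mild stress, in which stressors such as restraint, forced swim, isolation, wet bedding and predator sounds came in random order, and control females (10 libraries) and control males (10 libraries) did not. Age and strain are not given in the labels, which carry a library number but do not say that each library is a separate animal, so p-values measure the spread between libraries.

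Tac1 encodes a precursor that is cut into substance P and neurokinin A. Tac2 encodes the precursor of neurokinin B. Tacr1 is the receptor that prefers substance P, Tacr3 the receptor that prefers neurokinin B, and both couple mainly to Gq proteins, which release calcium inside the cell. In the mouse striatum, which borders the BNST, Tac1 is a known product of projection neurons of the direct pathway. In mice Tac2 has been studied in the BNST and central amygdala in connection with prolonged social isolation, and in the hypothalamus it is carried by kisspeptin neurons that drive reproductive hormones.

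The stretches of the transcripts that encode the active peptides are shown because they are what sets the ligands apart. They were read from GENCODE M21 transcripts on GRCm38, plus strand, and run 5′ to 3′, with the bases of the last 5 residues, the tachykinin signature, in capitals.
substance P: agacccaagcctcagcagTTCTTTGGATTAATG
neurokinin A: cataaaacagattccTTTGTTGGACTAATG
neurokinin B: gacatgcacgacttcTTTGTGGGACTTATG
Substance P is encoded by 33 bases of Tac1 at chr6:7556732-7556764, neurokinin A by 30 bases of Tac1 at chr6:7559101-7559130, and neurokinin B by 30 bases of Tac2 at chr10:127729116-127729145, each within 1 coding exon. Of the 15 signature bases, 12 were the same between substance P and neurokinin A, 10 between substance P and neurokinin B, and 13 between neurokinin A and neurokinin B. Of 4 annotated coding transcripts of Tac1, 3 held the substance P stretch and 2 held that of neurokinin A, so a count for Tac1 does not separate the peptides. The transcript with neither stretch has an annotated coding part of only 46 bases. Both coding transcripts of Tac2 held neurokinin B. The genes lie at chr6:7554879-7565834 (Tac1), chr10:127724478-127731768 (Tac2), chr6:82402334-82560104 (Tacr1) and chr3:134829007-134934579 (Tacr3), all on the plus strand, and 0 other annotated genes overlapped any of them.

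Total counts ran from 14.6 to 35.3 M in stressed females, 18.1 to 33.8 M in control females, 15.9 to 36.1 M in stressed males and 9.06 to 84.8 M in control males. Levels are given as CPM, counts scaled to a common library size after TMM normalization, on which a single count was worth 0.0116 to 0.115 CPM. Transcripts of the sex chromosomes matched the sex label in 19 of 19 male and 19 of 19 female libraries. The sum over 8 markers of extended amygdala neurons ran from 860 to 3947 CPM over the libraries, which does not tell the level of each marker. Earlier results of these data had set 5 libraries apart by myelin and astrocyte transcripts (female stressed 1 and 2, female control 1 and 6, male control 3), and male stressed library 5 held choroid plexus transcripts, with a sum over 6 markers of 3206 CPM. Stress and sex values of Tac1 and Tac2 are also given without the 5 libraries.

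The ligand precursors were far more abundant than the receptors. Per kilobase of the longest coding transcript, the median over the 38 libraries was 68.8 CPM for Tac1, 69.1 CPM for Tac2, 5.94 CPM for Tacr1 and 3.19 CPM for Tacr3. Every library's Tac1 and Tac2 level on this scale (at least 34.5 and 41.1) lay above every library's Tacr1 level (at most 8.22). Tacr1 exceeded Tacr3 in 38 of 38 libraries, by a median of 1.85 times (1.38 to 3.40), and by 1.43 times when the whole exon union was used as the length. The order of the ligands was not fixed: Tac1 exceeded Tac2 in 18 of 38 libraries with the coding transcript as the length and in 11 of 38 with the exon union. On the first length the median ratio of Tac1 to Tac2 was 1.80 in stressed females, 1.40 in control females, 0.693 in stressed males and 0.663 in control males. With the exon union it was 1.05, 0.817, 0.406 and 0.388 in the same groups, so that in control females the order of the ligands turned with the length. The ligands also went opposite ways with the library number. Tac1 averaged 64.5 CPM in the 18 libraries numbered 6 and above and 122 CPM in the 20 numbered up to 5. Tac2 averaged 72.1 and 55.2 CPM in the same sets. The group medians of the ratio do not take the number into account.

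Counts per library ran from 892 to 10977 for Tac1, 602 to 4427 for Tac2, 353 to 3168 for Tacr1 and 94 to 1000 for Tacr3, with no library at 0. The remaining members of the family were close to absent. Tac4, which encodes the hemokinin precursor, had 31 counts over all libraries, 0 in 26 of them and at most 6 in any. Tacr2, the receptor that prefers neurokinin A, had 86 counts over all libraries, 0 in 12 of them and at most 13. Tac4 summed to 12 counts in stressed females, 2 in control females, 4 in stressed males and 13 in control males. Tacr2 summed to 37, 9, 24 and 16 counts in the same groups. Both fell below the filter on low counts and were not tested.

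**Figure D1:**
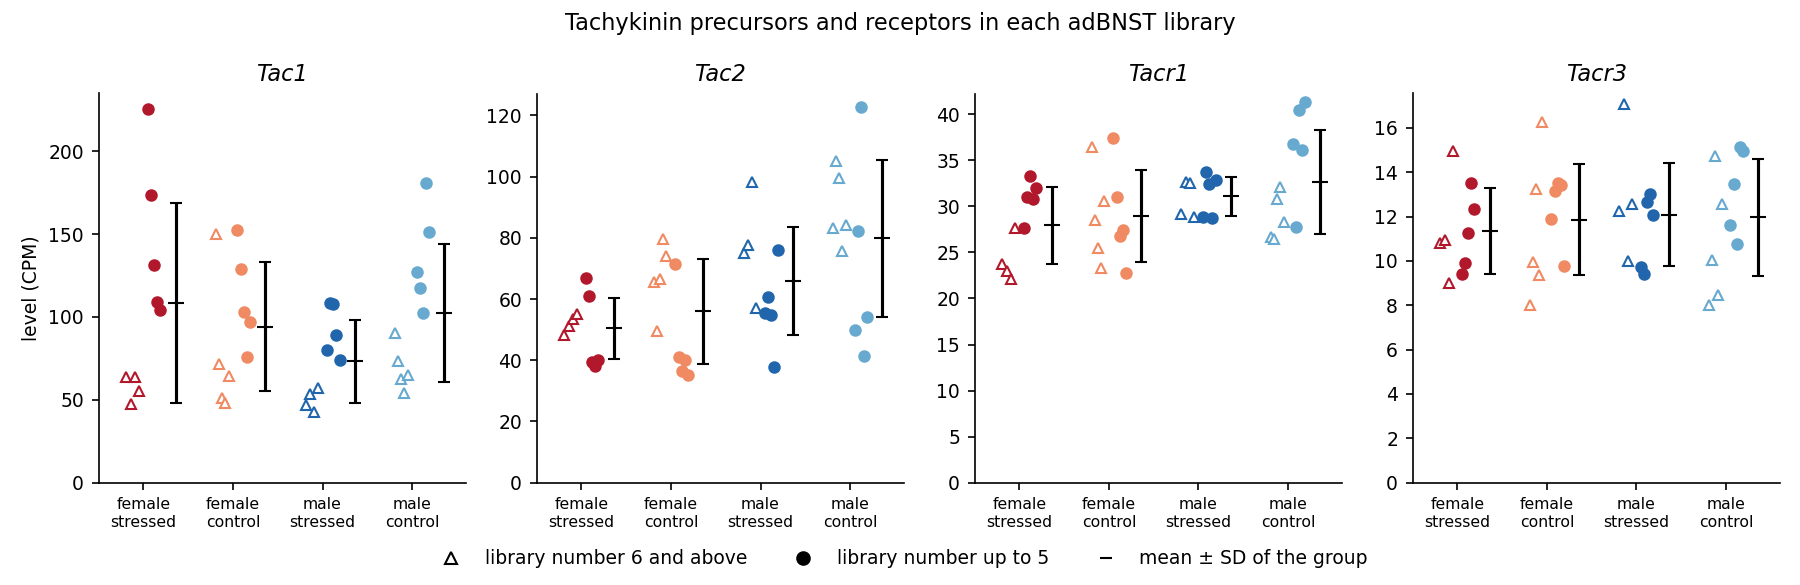
Level of each member (vertical axis, CPM) in every library, by group, with the mean ± SD of the group in black. Open triangles are libraries numbered 6 and above and filled circles those numbered up to 5. Tac1 ran from 42.5 to 226 CPM and within each group its triangles lie below the circles, except for female control library 6, while Tacr3 ran from 8.01 to 17.1 CPM with the symbols mixed.

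The question of the series was how chronic stress alters expression in the adBNST of each sex. No member passed an adjusted p of 0.05 for stress in females, in males, averaged over the sexes, or for the difference between the sexes in the stress effect. That is also what the whole table gave: 0 of 16309 genes passed in each of these 4 comparisons (0%), by edgeR's quasi-likelihood test, and 0 by DESeq2 and by limma voom. At an unadjusted p under 0.05, edgeR counted 308 genes for stress in females, 655 in males, 239 for the average and 736 for the difference, with 0 members among them. This fit held the 4 group means and no term for the library number.

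Tac1, the precursor of substance P, had the widest range over libraries of the members, 5.31 times from lowest to highest, against 3.50 for Tac2, 1.87 for Tacr1 and 2.14 for Tacr3. Its lowest, median and highest levels were 47.6, 104 and 226 CPM in stressed females, against 48.2, 86.4 and 152 CPM in control females. In males it had 42.5, 73.8 and 109 CPM under stress, against 54.4, 96.1 and 181 CPM in controls. The groups overlapped in both sexes. Its mean was 108 ± 60.2 CPM in stressed females (n = 9) and 94.2 ± 38.8 CPM in control females (n = 10), and 73.2 ± 25.1 CPM in stressed males (n = 9) and 102 ± 41.8 CPM in control males (n = 10; SD). By edgeR the log2 fold change was 0.20 ± 0.27 (SE) in females, with a 95% interval of -0.35 to 0.75 and an adjusted p of 1, and -0.49 ± 0.27 in males, with an interval of -1.04 to 0.066 and an adjusted p of 0.863. The male effect minus the female one was -0.68 ± 0.38 (adjusted p = 0.845). The female value rested on stressed library 1, the library with the most Tac1: without it the fold change was -0.0063. Without the 5 libraries set apart, Tac1 was at 0.039 ± 0.27 for stress in females and -0.48 ± 0.24 for stress in males.

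Tac2, the precursor of neurokinin B, had 38.2, 51.3 and 66.9 CPM (lowest, median, highest) in stressed females, against 35.0, 57.5 and 79.5 CPM in control females. Stressed males had 37.7, 60.8 and 98.2 CPM, against 41.5, 82.8 and 123 CPM in control males. The ranges overlapped, and the medians of the stressed groups were the lower ones. The log2 fold change was -0.15 ± 0.18 in females (95% interval -0.52 to 0.22) and -0.28 ± 0.18 in males (-0.65 to 0.095), with edgeR adjusted p-values of 1 and 0.863. Averaged over the sexes it was -0.21 ± 0.13 (-0.48 to 0.049; adjusted p = 1). Without the 5 libraries, Tac2 was at -0.19 ± 0.20 in females and -0.18 ± 0.18 in males. Single libraries moved the values to as little as -0.089 in females (without control 9) and -0.18 in males (without control 3).

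The receptors had fitted stress effects close to 0. Tacr1, the substance P receptor, averaged 27.9 ± 4.17 CPM in stressed and 29.0 ± 4.99 CPM in control females, and 31.1 ± 2.11 CPM in stressed and 32.7 ± 5.63 CPM in control males (SD, n = 9 stressed and n = 10 control of each sex). Its log2 fold change was -0.053 ± 0.10 in females and -0.070 ± 0.10 in males, with 95% intervals of -0.26 to 0.15 and -0.27 to 0.13. Tacr3, the neurokinin B receptor, averaged 11.4 ± 1.95 CPM in stressed and 11.9 ± 2.52 CPM in control females, and 12.1 ± 2.33 CPM in stressed and 11.98 ± 2.64 CPM in control males. Its log2 fold change was -0.061 ± 0.13 in females and 0.015 ± 0.13 in males, with intervals of -0.33 to 0.21 and -0.26 to 0.29. The groups overlapped for both receptors in both sexes.

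**Figure D2:**
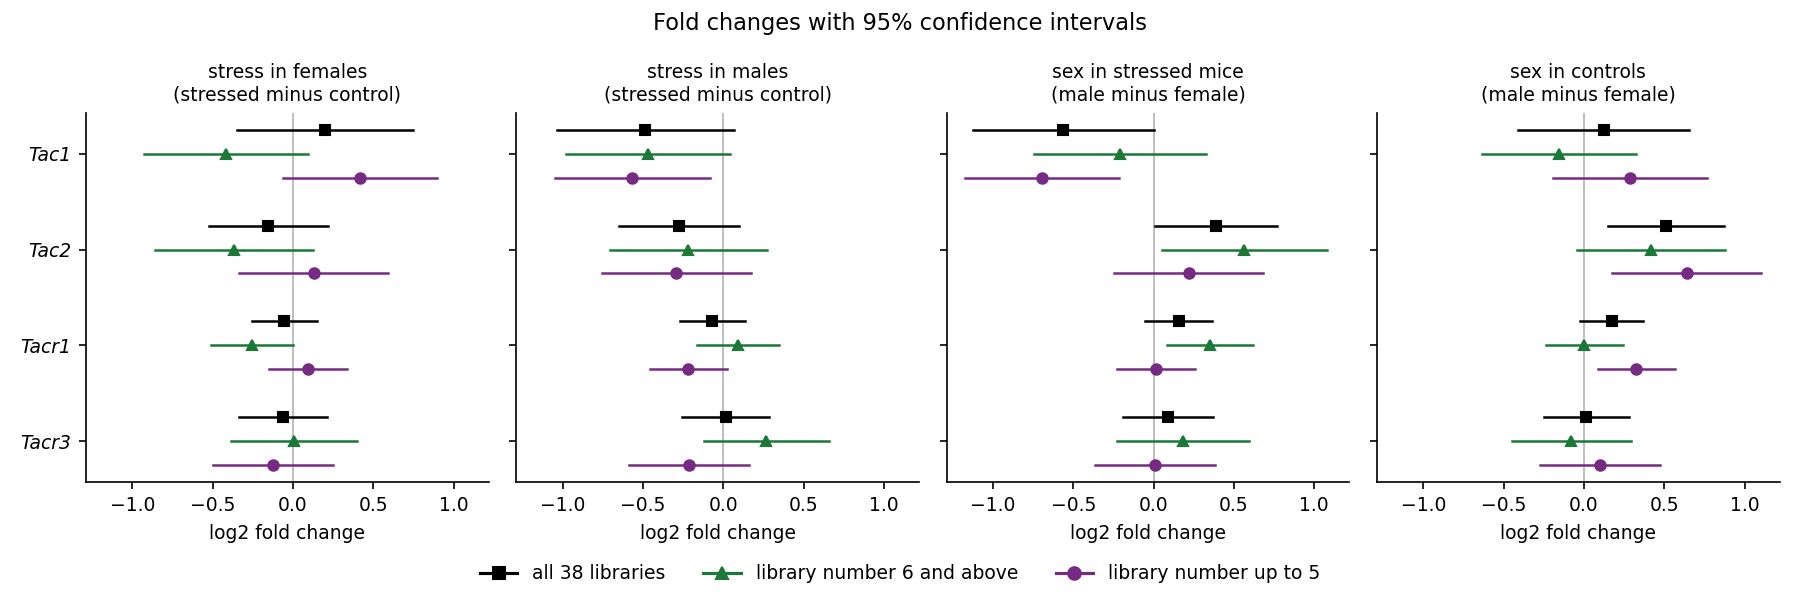
Log2 fold change (horizontal axis) of each member with its 95% confidence interval for stress and sex contrasts, from edgeR fits on all 38 libraries (squares) and within libraries numbered 6 and above (triangles) and up to 5 (circles). For Tac1 in females the circle lies at 0.42 and the triangle at -0.42, while Tac2 lies above 0 in every row of the sex contrasts.

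Between the sexes, Tac2 had the lowest p of the members, with higher values in males, and did not pass the adjustment. Control males had 41.5, 82.8 and 123 CPM (lowest, median, highest), against 35.0, 57.5 and 79.5 CPM in control females. Stressed males had 37.7, 60.8 and 98.2 CPM, against 38.2, 51.3 and 66.9 CPM in stressed females. The ranges overlapped in both comparisons. The log2 difference, male minus female, was 0.51 ± 0.18 in controls (95% interval 0.15 to 0.87, unadjusted p = 0.00678, adjusted p = 0.798, rank 137 of 16309 genes by p) and 0.39 ± 0.19 in stressed mice (0.0065 to 0.77, unadjusted p = 0.0464, adjusted p = 0.442), by edgeR. Without the 5 libraries set apart these values were 0.50 ± 0.18 and 0.51 ± 0.19. For sex in controls 11 genes of all those tested passed (0.0674%), and in stressed mice 14 passed (0.0858%; 9 without female stressed library 3), with 0 members among them. At an unadjusted p under 0.05, edgeR counted 679 genes for sex in controls (4.16%) and 1816 in stressed mice (11.1%). Tac2 was the 1 member among them in each, at rank 1713 by p in stressed mice.

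For sex, Tac1 took opposite signs in stressed and control mice, with neither value past the threshold. Stressed males had a mean of 73.2 ± 25.1 CPM (n = 9) and stressed females 108 ± 60.2 CPM (n = 9), a log2 difference of -0.56 ± 0.28 (95% interval -1.13 to 0.0017, adjusted p = 0.449 by edgeR). In controls, males had 102 ± 41.8 CPM and females 94.2 ± 38.8 CPM (n = 10 each), a log2 difference of 0.12 ± 0.26 that was -0.0022 without male control library 4. Without female stressed library 1 the value in stressed mice was -0.34, and without the 5 libraries set apart it was -0.16 ± 0.26 in stressed mice and 0.36 ± 0.25 in controls. The receptors differed less: Tacr1 gave 0.16 ± 0.10 in stressed mice and 0.17 ± 0.097 in controls, and Tacr3 gave 0.090 ± 0.14 and 0.014 ± 0.13, with adjusted p-values by edgeR from 0.546 to 1.

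Tac1 differed more by library number than by stress or sex. Libraries numbered 6 and above (18) were set against those numbered up to 5 (20) within groups. The labels do not say what the number stands for, and 45.5% of tested genes passed in this comparison (3782 higher and 3632 lower in the libraries from 6), so 3 of 4 members passing is to be read against that share. With the striatal marker score in the fit, 3573 genes passed. Total counts ran from 22.6 to 40.6 M in libraries from 6 and from 9.06 to 84.8 M in those up to 5, with medians of 31.7 and 20.9 M.

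Tac1 was at 64.5 ± 24.2 CPM in libraries from 6 (n = 18) and 122 ± 38.6 CPM in those up to 5 (n = 20), a log2 difference of -0.93 ± 0.13 (0.526-fold, adjusted p = 3.9e-07 by edgeR). Stressed females numbered 6 to 9 had 63.6, 47.6, 64.0 and 55.3 CPM, against 226, 173, 131, 109 and 104 CPM in those numbered 1 to 5. Stressed males numbered 6 to 9 had 46.9, 53.4, 42.5 and 57.0 CPM, against 80.2, 109, 108, 89.0 and 73.8 CPM in 1 to 5. The number sets did not overlap in either stressed group. Control males from 6 had 54.4 to 90.1 CPM, against 102 to 181 CPM up to 5, also without overlap. Control females from 6 had 48.2 to 150 CPM, against 75.9 to 152 CPM, where library 6 was at 150 CPM and the others from the higher numbers at 71.3 CPM or less.

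Tac2 went the other way, at 72.1 ± 17.7 CPM in libraries from 6 and 55.2 ± 21.4 CPM in those up to 5 (log2 difference 0.37 ± 0.12, adjusted p = 0.0085). Control females from 6 had 49.4 to 79.5 CPM, against 35.0 to 71.4 CPM up to 5, and control males had 75.6 to 105 CPM, against 41.5 to 123 CPM. Stressed females from 6 had 48.1 to 55.2 CPM, against 38.2 to 66.9 CPM up to 5, with means of 52.0 and 49.1 CPM, and stressed males had 56.9 to 98.2 CPM, against 37.7 to 76.2 CPM. The number sets overlapped in all 4 groups, and in the controls female control library 1 and male control library 3, which are among the 5 libraries set apart, were the highest of the low numbers. Without those 5 libraries the difference was 0.57 ± 0.089 (adjusted p = 2.3e-06). Tacr1 was at 28.2 ± 3.88 CPM from 6 and 32.0 ± 4.73 CPM up to 5 (-0.18 ± 0.064, adjusted p = 0.0197), and Tacr3 at 11.6 ± 2.81 and 12.1 ± 1.78 CPM (-0.060 ± 0.095, adjusted p = 0.632, all by edgeR).

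Marker genes of neighbouring tissue, and some of the extended amygdala, moved with the library number. The counts here are of markers past the threshold, against 45.5% of all tested genes. Of 8 extended amygdala neuron markers, 2 were higher in libraries from 6, Prkcd (1.08 ± 0.17) and Cartpt (0.43 ± 0.099). Penk was the 1 that was lower (-0.66 ± 0.17). All 14 striatal projection neuron markers were lower in libraries from 6 (median log2 difference -0.77), among them the dopamine receptors Drd1 (-0.90 ± 0.14) and Drd2 (-0.60 ± 0.15), and so were all 10 oligodendrocyte markers (median -0.92). All 5 ependymal markers (median 1.42) and 4 of 5 septal markers (median 0.62) were higher. Other lists moved less or both ways. Of 7 general neuron markers 1 was higher and 2 were lower, and of 8 astrocyte markers 1 and 2. Of 7 markers of interneurons known to carry Tacr1, 2 were higher and 3 lower. Of 6 microglia markers and of 5 hypothalamic markers tested, 1 each was higher. Among 6 endothelial and 6 choroid plexus markers, 0 passed. The median over all tested genes was 0.011. The summed level of the striatal list ran from 917 to 4910 CPM in libraries from 6 and from 1898 to 5691 CPM in those up to 5. The difference in Tac1 shrank to -0.25 ± 0.10 (adjusted p = 0.0776) when the striatal marker score of each library was added to the fit. In the same fit Tac2 was at 0.41 ± 0.18 (adjusted p = 0.0872), Tacr1 at -0.058 ± 0.094 (adjusted p = 0.667) and Tacr3 at -0.26 ± 0.14, so no member passed. In bulk tissue, a smaller number of cells of a type and less RNA per cell cannot be told apart.

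**Figure D3:**
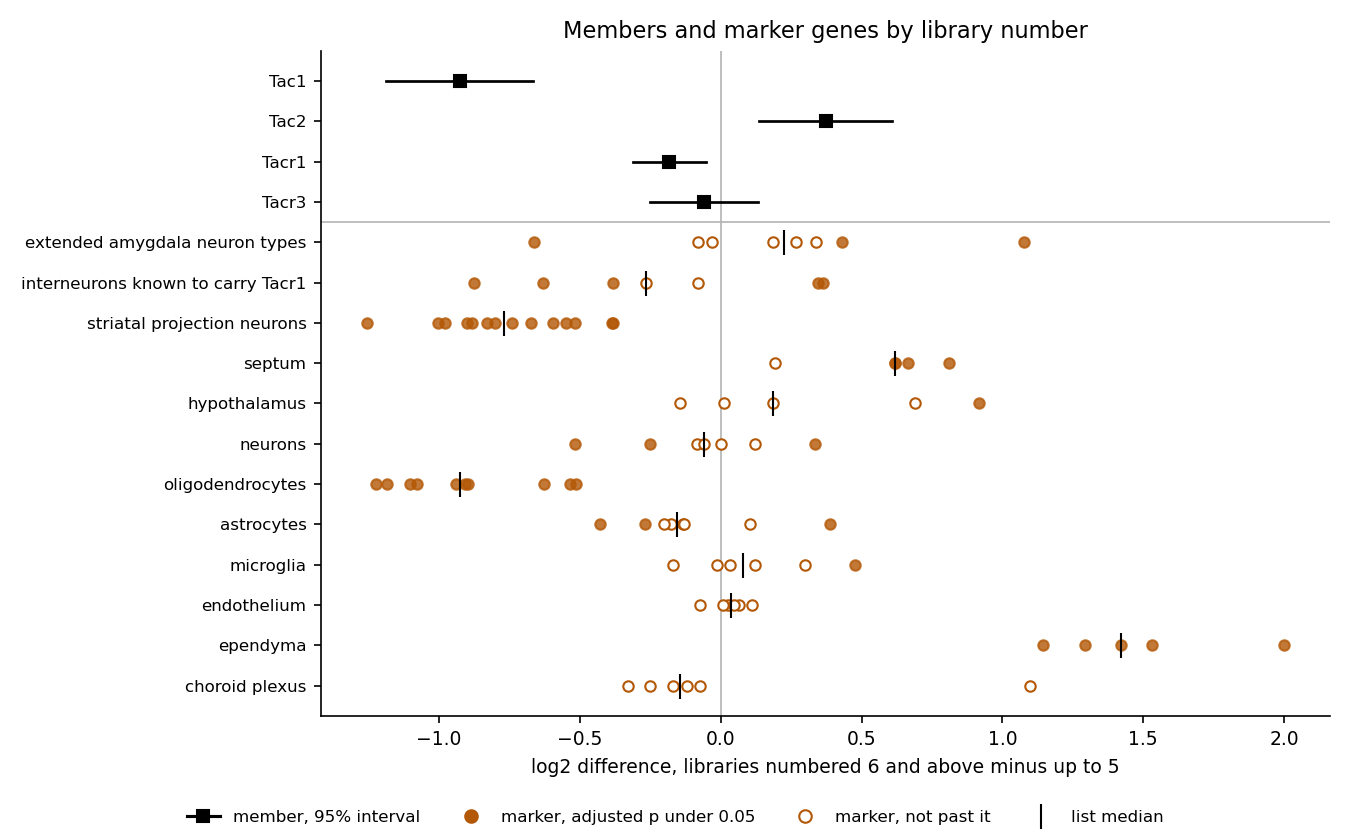
Log2 difference (horizontal axis) between libraries numbered 6 and above and those numbered up to 5, for the members with 95% intervals and for the genes of each marker list as points, filled where the adjusted p is under 0.05, with the list median as a bar. Tac1 at -0.93 lies among the striatal and oligodendrocyte markers (medians -0.77 and -0.92), and Tac2 at 0.37 lies on the other side of 0.

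Within the number sets the stress and sex values took different signs for some members. Stress in females gave Tac1 -0.42 ± 0.25 in libraries from 6 and 0.42 ± 0.24 in those up to 5, where the test of this difference between the sets gave -0.83 ± 0.35 (unadjusted p = 0.0213, adjusted p = 0.760). In males both values were negative, -0.47 ± 0.25 from 6 and -0.57 ± 0.24 up to 5 (by edgeR, unadjusted p = 0.0718 and 0.0223, adjusted p = 0.927 and 0.990). With a term for the number set in the fit on all libraries, the SE of Tac1 fell to 0.18, and stress in males gave -0.52 ± 0.18 (adjusted p = 0.652) and stress in females 0.028 ± 0.18. The male stress effect on Tac1 minus the female one was -0.052 ± 0.35 from 6 and -0.98 ± 0.33 up to 5. Sex in stressed mice gave Tac1 -0.21 ± 0.26 from 6 and -0.69 ± 0.24 up to 5. By edgeR the values up to 5 had unadjusted p = 0.00579 and 0.00591 (adjusted p = 0.632 and 0.231). For sex, Tac2 gave 0.42 ± 0.23 from 6 and 0.64 ± 0.23 up to 5 in controls, and 0.57 ± 0.25 and 0.22 ± 0.23 in stressed mice, with none past the threshold (adjusted p of 0.612 or more by edgeR). Tacr1 gave 0.0021 ± 0.12 from 6 and 0.33 ± 0.12 up to 5 for sex in controls, and 0.35 ± 0.13 and 0.016 ± 0.12 in stressed mice. The lowest p for a difference between the sets was that of Tacr1 for the male stress effect minus the female one, 0.35 ± 0.18 from 6 and -0.31 ± 0.17 up to 5, which differed by 0.66 ± 0.24 (unadjusted p = 0.0105, adjusted p = 0.999). Tacr3 gave 0.27 ± 0.19 from 6 and -0.22 ± 0.18 up to 5 for stress in males. Adjusted p-values of the differences between the sets were 0.760 or more for the members in these contrasts, by edgeR.

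Striatal markers lay mostly on 1 side of 0 in the stress and sex contrasts, with none past the threshold. In the comparison of stressed males with stressed females, 13 of 14 striatal markers lay below 0 (median -0.48, against -0.013 for all genes), and their sum had a median of 2489 CPM in stressed males (917 to 2812) and 3059 CPM in stressed females (1450 to 5691). For stress in males 13 of 14 lay below 0 (median -0.30, against -0.022) and for stress in females 13 of 14 lay above 0 (median 0.14, against 0.0098), the directions that Tac1 took. For sex in controls 10 of 14 lay below 0 (median -0.094, against 0.0016), where Tac1 was at 0.12. Oligodendrocyte markers lay below 0 in 10 of 10 for stress in females (median -0.18) and 9 of 10 in males (median -0.18), and septal markers lay above 0 in 5 of 5 in each sex (medians 0.30 and 0.46), with 0 past the threshold. Choroid plexus markers lay above 0 in 6 of 6 for stress in males (median 2.02) and 4 of 6 in females (median 0.12). The part of these lists in the values of Tac1 was not tested. The striatal score varied with Tac1 (r = 0.84), so a fit with it cannot tell fewer cells from less RNA per cell. With the striatal score in the fit, Tac1 was at 0.029 ± 0.11 for sex in stressed mice, -0.23 ± 0.10 for stress in males and 0.011 ± 0.10 for stress in females. Tac2 was at 0.25 ± 0.19 for sex in stressed mice and 0.47 ± 0.17 for sex in controls in that fit. Of the other lists, 2 choroid plexus genes, Ttr and Kcnj13, were higher in stressed males than in stressed females (log2 difference 6.66 ± 1.32, adjusted p = 0.0164, and 3.97 ± 0.86, adjusted p = 0.0450, by edgeR), where male stressed library 5 stood at a list sum of 3206 CPM and the median sums were 40.9 CPM in stressed males and 38.5 CPM in stressed females. No other gene of any list passed in any of the 6 contrasts.

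No pair of members passed a test of varying together beyond the groups and number sets. Centred on group only, Tac1 and Tacr1 had r = 0.58 and passed. Over the 38 libraries, with log2 CPM (prior count of 2) centred on group and number set, Tac1 and its receptor Tacr1 had r = 0.34 (Spearman rho = 0.20), and Tac2 and its receptor Tacr3 had r = -0.18 (rho = -0.19), each with an adjusted p of 0.504 by permutation over the 6 pairs (raw p = 0.105 and 0.252). For Tac1 and Tacr1, r was 0.48 in libraries from 6 and 0.23 in those up to 5, and 0.28 without the 2 libraries farthest from the median. For Tac2 and Tacr3, r was 0.15 from 6, -0.49 up to 5 and -0.11 without the 2 farthest. The ligands had r = 0.0057 and the receptors r = 0.12. All 6 adjusted p-values by permutation were 0.504 or more.

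Each member had its own pattern against the markers of cell types and neighbouring regions. Of 48 pairs of a member and a marker list, 10 passed an adjusted p of 0.05 in permutation tests of r. Not all of these passed in permutation tests of Spearman rho. Tac1 with the striatal list did (adjusted p = 0.00048), as did Tac1 with the choroid plexus list (0.0172). Tac1 varied with the striatal list, with r = 0.84 (rho = 0.82; raw p = 1e-05, the smallest that the permutations allow, and adjusted p = 0.00048), r = 0.84 in libraries from 6 and 0.86 in those up to 5, 0.77 without the 2 libraries farthest from the median, and 0.71 without the 5 libraries set apart. Tac1 also ran against the choroid plexus list (r = -0.42, rho = -0.53, permutation p = 0.00052, adjusted p = 0.00832; -0.75 from 6 and -0.38 up to 5; -0.51 without the 2 farthest). These were the relations that passed in each of the settings tried: without the 2 farthest libraries, without the 5 libraries set apart, and with size factors of DESeq2. In each setting male stressed library 5 entered the centring of the choroid plexus score. Its centred score was 4.43, against -1.24 to -0.93 in male stressed libraries 1 to 4. Over both number sets, the choroid plexus relation was not tested with this library left out before centring. The value from 6 does not include it.

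The other 8 pairs lost the threshold in at least 1 of these settings. Tac1 had r = 0.62 with a list of interneurons known to carry Tacr1 (rho = 0.59, permutation p = 0.00032, adjusted p = 0.00768; 0.54 from 6 and 0.70 up to 5), 0.55 with oligodendrocytes (rho = 0.43, p = 0.00855, adjusted p = 0.0431; 0.76 and 0.24) and -0.49 with septal markers (rho = -0.36, p = 0.00897, adjusted p = 0.0431; -0.66 and -0.25). Tac2 had r = 0.53 with extended amygdala neurons (rho = 0.54, permutation p = 0.00081, adjusted p = 0.00972; 0.52 and 0.58), a list with peptides of the oval nucleus and central amygdala such as Sst, Crh and Cartpt, of which Sst also stands in the interneuron list. Tac2 had r = -0.039 with the striatal list (-0.32 from 6 and 0.13 up to 5), which was -0.45 without the 5 libraries set apart (permutation p = 0.0344, adjusted p = 0.165). Its r of -0.50 with endothelium did not pass (permutation p = 0.0205, adjusted p = 0.0895) and was -0.13 without those libraries. For Tacr3 and general neuron markers r was 0.39 (adjusted permutation p = 0.105; 0.71 from 6 and 0.013 up to 5), and without the 5 libraries the pair passed, with r = 0.65 (adjusted permutation p = 0.0164). Tacr1 had r = 0.57 with the interneuron list (rho = 0.44, permutation p = 0.00563, adjusted p = 0.0341; 0.46 and 0.64), 0.55 with general neuron markers (rho = 0.46, p = 0.00568, adjusted p = 0.0341; 0.45 and 0.63) and 0.50 with microglia (rho = 0.47, p = 0.00139, adjusted p = 0.0111; 0.32 and 0.62). Tacr3 had r = -0.61 with oligodendrocytes (rho = -0.50, permutation p = 0.00106, adjusted p = 0.0102; -0.66 and -0.48). Without the 2 farthest libraries these 8 values ran as 0.63, 0.32, -0.35, 0.57, 0.39, 0.36, 0.41 and -0.51 in the order given. By permutation of rho, Tac1 with interneurons and Tac2 with extended amygdala neurons passed (adjusted p = 0.0172 each). The rest of the 8 did not. Their adjusted p by rho was 0.0953 and 0.156 for Tac1 with oligodendrocytes and septum, and 0.0504 for Tacr3 with oligodendrocytes. For Tacr1 it was 0.0953 with interneurons, 0.0780 with neurons and 0.0594 with microglia.

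**Figure D4:**
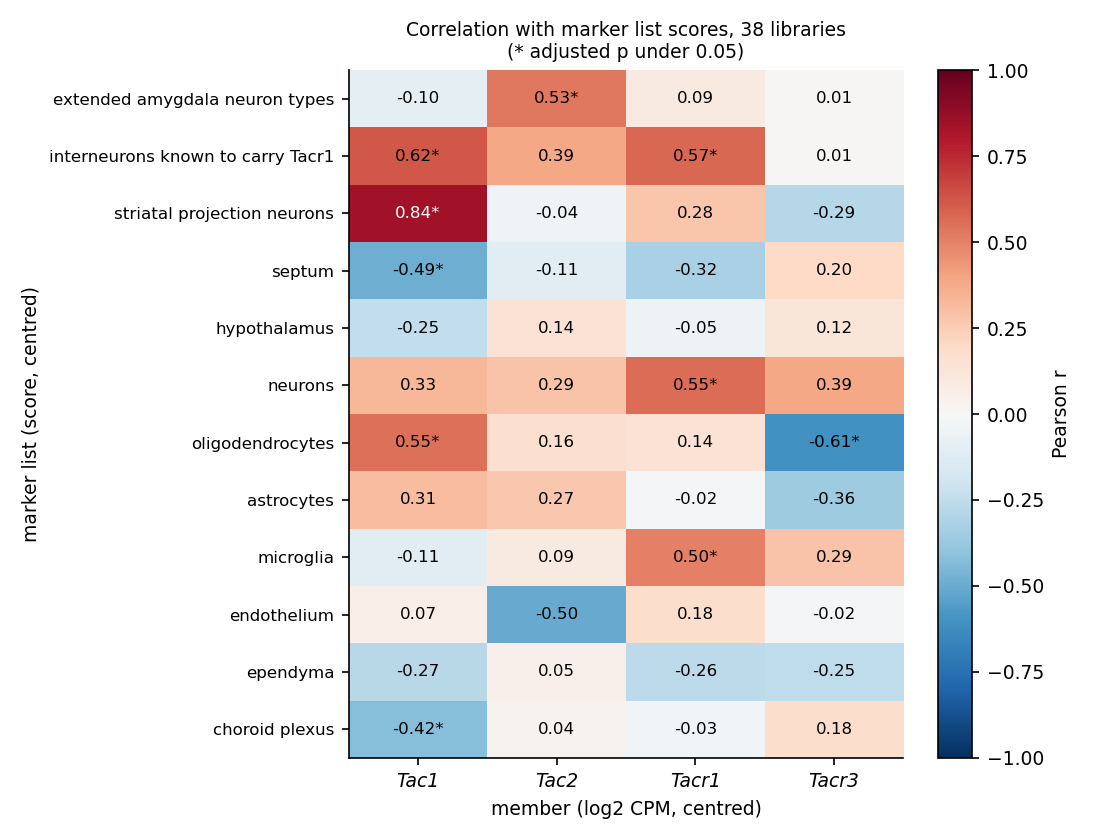
Pearson r over 38 libraries between each member (columns, log2 CPM) and the score of each marker list (rows), both centred on group and number set, with a star where the adjusted permutation p is under 0.05. Tac1 and the striatal list reach 0.84, Tac2 peaks with extended amygdala neurons at 0.53, and Tacr3 is lowest with oligodendrocytes at -0.61.

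**Figure D5:**
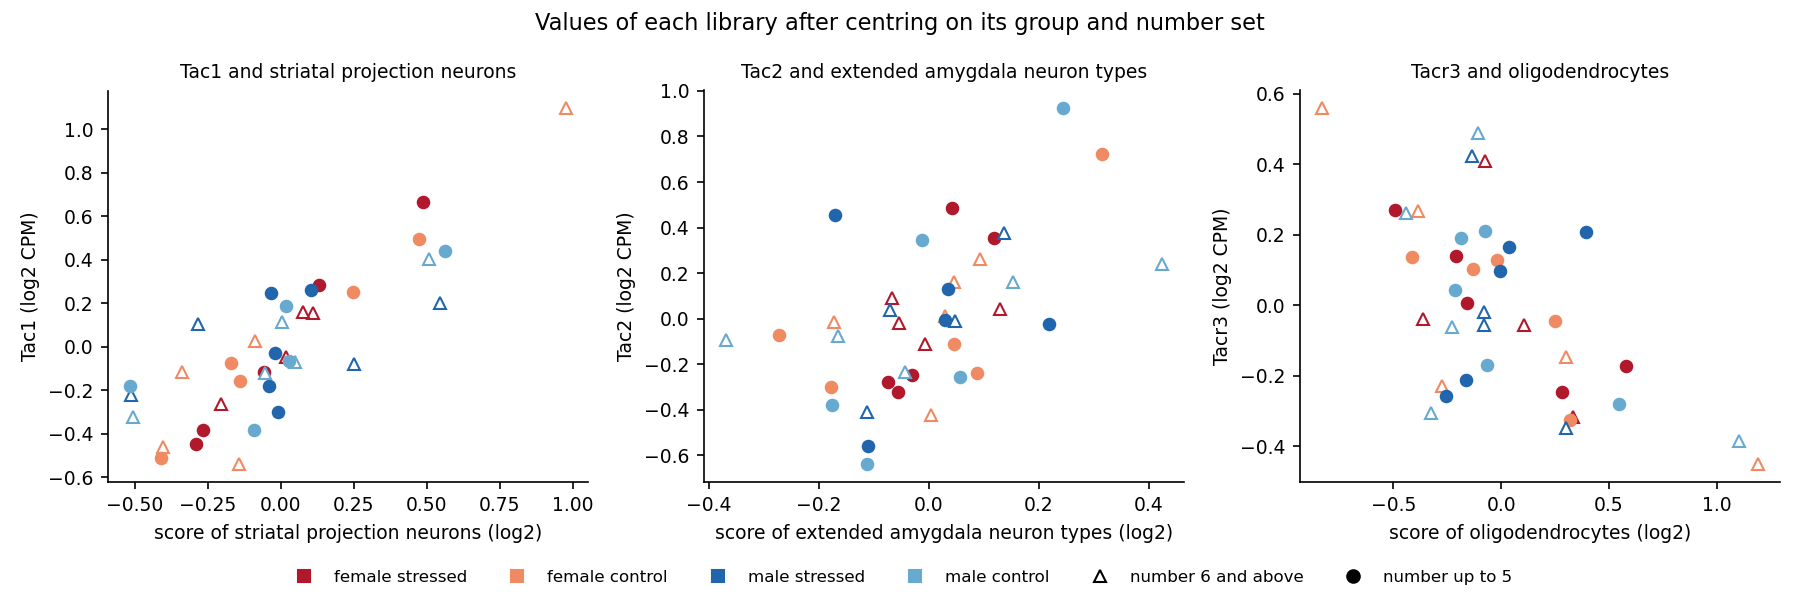
Each library's level of Tac1, Tac2 and Tacr3 (vertical axes, log2 CPM) against the score of a marker list (horizontal axes, log2), after centring on group and number set, coloured by group. The Tac1 points climb along the striatal score (r = 0.84), the Tac2 points climb more loosely along the extended amygdala score (r = 0.53), and the Tacr3 points descend along the oligodendrocyte score (r = -0.61).

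The genes most like each member across the libraries were named by the largest r of centred log2 CPM among 13805 other genes. They are a description over libraries that differ in depth and in markers of neighbouring tissue. For Tac1 they included Chn1 (r = 0.90), Zfp365 (0.88), Coa5 (0.88) and Ido1 (0.87). For Tac2 they were Ttll1 (0.88), Camk2n2 (0.84), an inhibitor of the kinase CaMKII, Rhov (0.84), Gnas (0.84), the stimulatory G protein subunit, and BC017158 (0.84). For Tacr3 they included Rngtt (0.81), Syt4 (0.81), a synaptotagmin of dense-core vesicles, Pex13 (0.81) and Cbx5 (0.81). Tacr1 had weaker likenesses, with Nell2, Mrrf, Fam20b and Tpd52l1 at 0.67 and Rab6b at 0.65. Centred on group only, Nell2 was at 0.38 and Mrrf at 0.55, while Fam20b, Tpd52l1 and Rab6b were at 0.73, 0.76 and 0.76. Over the genes named for each member, r within the number sets stayed at 0.85 or above from 6 and 0.87 or above up to 5 for Tac1, while for Tac2 it ran from 0.49 to 0.73 from 6 and from 0.86 to 0.93 up to 5.

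The rest of the pathway gave no call in the 6 contrasts of stress and sex. Of 10 genes of peptide processing and breakdown, such as the prohormone convertases Pcsk1 and Pcsk2 and the substance P-degrading peptidase Mme, 0 passed in any contrast. Their list medians ran from -0.031 (stress in females) to 0.091 (sex in stressed mice). Of 19 genes of Gq signalling and receptor regulation, such as Gnaq, Plcb1 and the arrestins, 0 passed, with medians from -0.10 (sex in controls) to 0.025 (difference of the stress effects). Of 9 partners of neurokinin B in reproductive neurons, among them Kiss1, Pdyn and the steroid receptors, 0 passed, with a median of 0.21 for sex in controls, where 7 of 9 lay above 0. The medians of all tested genes in these contrasts lay between -0.036 and 0.0098. By library number, 3 of the 10 processing genes were higher and 2 lower in libraries from 6, 5 of the 19 Gq genes higher and 9 lower, and 1 of the 9 partners higher and 2 lower, against 45.5% of all genes. Mme was among the lower ones, at -1.26 ± 0.16 (adjusted p = 5.9e-08 by edgeR).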

How the data were processed

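RNA of adBNST microdissections was sequenced as poly-A-selected stranded libraries, per the labels' protocols. The authors deposited raw counts per gene symbol with no scaling, as judged from whole numbers with unequal totals. STAR, featureCounts, DESeq2 and mm10 are named in the submitters' processing notes. No version, annotation or strand setting is given in the sources used here. The members and lists were chosen with earlier results of these data known.

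Genes were tested with edgeR 4.0.16 (quasi-likelihood, filterByExpr by group, TMM, 4 group means, R 4.3.3), with Benjamini-Hochberg adjustment over 16309 genes, after the statistics were tested on simulated data. Of 38 columns, 0 belonged to other samples. Alternatives used limma 3.58.1 and DESeq2 1.42.0. The closest libraries of a group differed by a chi-square per gene of 7.83 to 18.8, so none was treated as a copy. Correlations used 100000 resamples within group and number set. A list's score is the mean centred log2 CPM of its genes. Named genes were the members, Tac4, Tacr2, up to 4 passing genes of each list, and the 5 genes most like each member (mean CPM of 1 or more, unnamed models passed over), of which 2 are not reported here. Other list genes were named as examples or chosen after their values were seen. Peptide stretches and lengths came from GENCODE M21 on GRCm38.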

Additional observations from a re-analysis of the deposited data

Results flagged for a closer look

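Tacr3 in male stressed library 7 stood at 17.1 CPM, against 9.42 to 13.0 CPM in the other stressed males, a gap large enough to be marked by Dixon's test in a group of 9. The test was run on the 4 members in each of 4 groups, and chance marks about 1 in 20 groups. Without this library the log2 fold change of Tacr3 for stress in males was -0.055.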

How the results depend on the processing

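None of the 24 member results for stress and sex passed the threshold under any of 8 alternatives or 38 refits that each left out 1 library. Some signs turned, most of them of values near 0, and the cause was not tested. With limma voom, stress in females gave Tac1 -0.032, Tac2 0.00035 and Tacr1 0.020, stress in males gave Tacr3 -0.0096, the average over the sexes gave Tacr1 0.0031, and sex gave Tacr3 -0.034 in controls and -0.0052 in stressed mice. Without the 5 libraries set apart, Tacr1 was 0.026 for stress in females, Tac2 0.0048 for the difference of the stress effects and Tacr3 -0.032 for sex in controls. With the striatal score, Tacr3 was -0.00035 for stress in males, Tacr1 0.055 for the difference and Tac1 0.029 for sex in stressed mice, against -0.56. With a term for the number set, Tacr1 was 0.0028 for the difference.

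With the replicate block, Tacr1 was 0.0022 for the difference and Tacr3 0.021 for the average, and no member call changed. Same-numbered libraries of different groups deviated together with r from -0.357 to 0.671 (median 0.235, 40 of 55 pairs over 0.1), against a median of 0.241 for other numbers of the same set (155 of 216 over 0.1). By these medians same-numbered libraries were no closer than others of their set. The labels do not say what the number marks, and the libraries were not treated as paired.

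Leaving out single libraries, values ran as follows on the log2 scale: Tac1 -0.0063 to 0.30 and Tacr3 -0.12 to 0.00029 for stress in females, Tacr3 -0.055 to 0.070 for stress in males, Tacr1 -0.064 to 0.029 for the difference, Tacr3 -0.056 to 0.014 for the average, and Tac1 -0.0022 to 0.22 and Tacr3 -0.040 to 0.075 for sex in controls.

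For sex in controls, 21 genes passed with DESeq2, 30 with limma voom and 17 with the striatal score, against 11. For sex in stressed mice 24 passed with DESeq2, against 14. Leaving out single libraries, 9 (without female stressed 3) to 15 passed for sex in stressed mice.

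Correlations of members centred on group only were -0.36 for Tac1 and Tac2, 0.58 for Tac1 and Tacr1, now past the threshold, and -0.055 for Tac2 and Tacr1. With size factors Tac1 and Tac2 had -0.022. Without the 5 libraries they had -0.38, Tac1 and Tacr3 0.011, Tac2 and Tacr1 -0.067, and Tac2 and Tacr3 0.035. Without the 2 farthest libraries, Tac1 and Tac2 had -0.095 and Tac2 and Tacr1 -0.075.

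With marker lists, calls were lost without the 5 libraries for Tac1 with interneurons (0.36), septum (-0.48) and oligodendrocytes (0.31), Tac2 with extended amygdala neurons (0.32), Tacr1 with interneurons (0.52) and Tacr3 with oligodendrocytes (-0.48). A call was gained there for Tacr3 with neurons (0.65). Calls were lost without the 2 farthest libraries for Tac1 with septum (-0.35) and oligodendrocytes (0.32), and Tacr1 with interneurons (0.39), neurons (0.36) and microglia (0.41). The number-set and marker-list alternatives were chosen after seeing the data. Counting error limits Tacr3 most, at 94 counts in its shallowest library.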
